A study of Mus musculus with 12 samples.

Results

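The genes described here are 44 mouse genes of the interferon response and of antigen presentation, taken by symbol from the 24207 genes of a table of read counts. All 44 had a row of their own. RNA had been sequenced on day 7 from mouse embryonic fibroblasts, connective tissue cells of strain C57BL/6, in 12 libraries of 4 groups with 3 replicates each. Cells of every group carried the lentiviral constructs FUW-OSKM, for Oct4, Sox2, Klf4 and cMyc, and FUW-M2rtTA, the activator that doxycycline switches on, and shared a culture layer of irradiated feeder fibroblasts and a medium for embryonic stem cells. The double knockdown had doxycycline and short hairpins against Trim28 and Setdb1, and the Trim28 knockdown had doxycycline and the Trim28 hairpin alone. Induced controls had doxycycline and a scrambled hairpin, and uninduced cells had the scrambled hairpin without doxycycline. Trim28 is a corepressor of chromatin and Setdb1 a histone methyltransferase that works with it. The labels do not say whether replicates were separate cultures, so the p-values speak of the spread among these libraries, which may be technical. They do not say either whether feeder cells were removed, and the feeders' share of the RNA was not tested.

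Cells sense foreign RNA or DNA with receptors such as Ifih1 and Ddx58, which lead to the secretion of interferons. Interferon bound to its receptor activates transcription factors, Stat2 and Irf9 among them, which bind a short DNA element, the interferon-stimulated response element, and switch on antiviral genes. Interferon also raises the genes that cut proteins into peptides, carry the peptides into the endoplasmic reticulum and display them on MHC class I molecules with beta-2 microglobulin (B2m). In fibroblasts many of these genes are transcribed at a low level without infection.

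The response element was looked for in the 250 bases before the annotated gene start, in RefSeq promoters of the build GRCm38.p6. A promoter was found by symbol for 34 of the 44 members (38 windows). The 10 others were Usp18, Parp9, Parp14, Mx1, Mx2, Zbp1, Tap2, Iigp1, Oas2 and Dhx58. The letters GAAA, any 2 bases and GAAA again, on either strand, stood in 15 of the 34 members (44.1%), against 936 of 27025 genes in the whole promoter table (3.46%). The letters TTCNNNGAA, the interferon gamma activated site, stood in 8 of the 34 (23.5%), against 2197 of 27025 (8.13%). A match is a description of the letters and not a site shown to be bound. Matches were not confined to members that rose, by the calls defined below. In the Trim28 knockdown against induced controls, 3 of 11 members with a promoter that rose held the response element. So did 10 of 21 that did not pass and the 1 that fell. In induced controls against uninduced cells it stood in 4 of 7 that rose, 8 of 17 that fell and 2 of 9 that did not pass. The 6 promoters below belong to members whose levels are followed in the results. They run 5′ to 3′ along the gene and end at the base before the gene start, and the capitals mark the response element matches of either strand, which overlap one another in Isg15, Irgm1, Oas1a and Bst2. In Bst2 a TTCNNNGAA match overlapped the element as well. Irf7 is shown because it had no match in this window.
Isg15 (chr4:156200819-156201068, minus strand): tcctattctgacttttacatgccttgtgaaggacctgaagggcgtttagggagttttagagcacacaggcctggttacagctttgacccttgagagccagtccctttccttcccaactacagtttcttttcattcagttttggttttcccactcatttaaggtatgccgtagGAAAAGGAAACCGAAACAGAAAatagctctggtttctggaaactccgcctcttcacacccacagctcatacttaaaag
Ifit1 (chr19:34640639-34640888, plus strand): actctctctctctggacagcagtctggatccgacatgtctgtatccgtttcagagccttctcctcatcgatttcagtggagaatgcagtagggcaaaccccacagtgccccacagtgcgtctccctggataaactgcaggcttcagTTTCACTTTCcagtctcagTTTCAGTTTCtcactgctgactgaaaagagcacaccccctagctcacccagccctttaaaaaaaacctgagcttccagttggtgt
Irgm1 (chr11:48871421-48871670, minus strand): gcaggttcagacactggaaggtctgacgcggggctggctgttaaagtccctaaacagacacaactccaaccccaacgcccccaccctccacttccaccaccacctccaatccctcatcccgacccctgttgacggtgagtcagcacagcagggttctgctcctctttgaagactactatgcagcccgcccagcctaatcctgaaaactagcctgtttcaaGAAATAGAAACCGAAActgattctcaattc
Oas1a (chr5:120907526-120907775, minus strand): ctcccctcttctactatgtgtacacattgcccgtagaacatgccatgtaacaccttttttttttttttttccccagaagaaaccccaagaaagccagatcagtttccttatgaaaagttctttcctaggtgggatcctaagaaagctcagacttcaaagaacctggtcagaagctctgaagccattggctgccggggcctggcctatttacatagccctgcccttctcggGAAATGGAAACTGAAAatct
Bst2 (chr8:71537473-71537722, minus strand): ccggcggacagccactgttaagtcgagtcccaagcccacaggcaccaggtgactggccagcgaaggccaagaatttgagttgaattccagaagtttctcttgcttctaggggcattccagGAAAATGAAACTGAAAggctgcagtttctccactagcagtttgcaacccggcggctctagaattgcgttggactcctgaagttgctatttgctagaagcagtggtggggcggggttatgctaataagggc
Irf7 (chr7:141266425-141266674, minus strand): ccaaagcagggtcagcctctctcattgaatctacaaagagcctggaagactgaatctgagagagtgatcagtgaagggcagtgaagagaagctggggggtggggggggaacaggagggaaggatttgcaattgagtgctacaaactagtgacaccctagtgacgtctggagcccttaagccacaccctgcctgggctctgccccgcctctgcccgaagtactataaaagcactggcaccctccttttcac

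**Figure D1:**
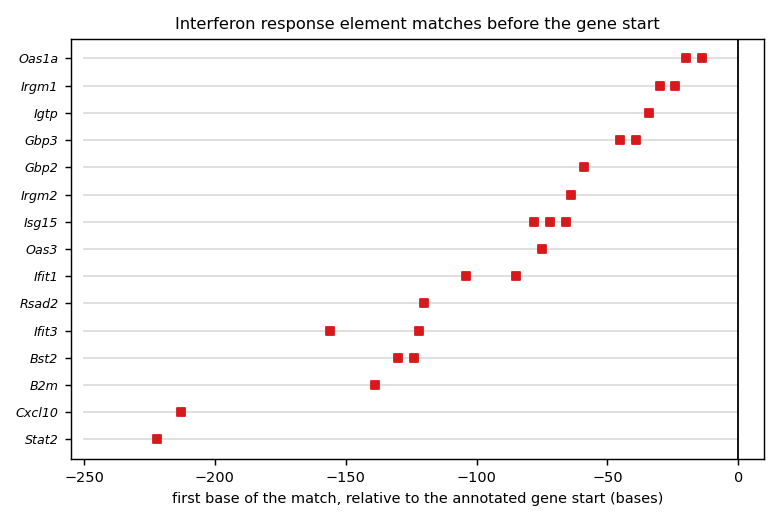
Position of each match to the response element letters (either strand) in the promoters of the 15 members that held it; the horizontal axis gives the first base of the match in bases before the annotated gene start, and each square is a match. The matches nearest the start were those of Oas1a, at 20 and 14 bases, and Irgm1, at 30 and 24 bases; that of Stat2 lay 222 bases before it.

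Members also shared position. Psmb9, Tap1, Psmb8 and Tap2 followed each other on chromosome 17, with the rows of Psmb9 and Tap1 overlapping by 212 bases and a gap of 496 bases between Tap1 and Psmb8. Ifit2, Ifit3 and Ifit1 lay together on chromosome 19, Parp14, Dtx3l and Parp9 on chromosome 16, Mx1 and Mx2 on chromosome 16, and Gbp3 and Gbp2 on chromosome 3. On chromosome 5 the OAS genes formed separate groups, Oasl2 with Oasl1 and, farther along, Oas2 with Oas3 and Oas1a. Whether strand was used in counting is not stated, and without it the reads of genes that overlap cannot be told apart. This touches Igtp and Irgm2, which overlap by 7974 bases, Gbp3, whose row lies within that of Gbp5, and, over 682 bases, Parp9 and Dtx3l. Cxcl10 (138 reads over all libraries) lies wholly within the row of Art3 (51 reads), and Tapbp (20789 reads) overlaps Zbtb22 (5955 reads) over 3421 bases. Psmb9, with 148 reads, overlaps Tap1, with 4462, and Parp9 overlaps the antisense gene Gm15564 (295 reads) over 5854 bases. Counts of Oas1a, of the IFIT genes and of the GBP genes, which have closely similar relatives, may be split between genes, and this was not tested.

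Libraries held 11906701 to 19191649 counted reads, so that 3 reads corresponded to 0.150 to 0.243 CPM (counts scaled to a common library total, with TMM factors). The hairpins were read in their targets: Trim28 stood at 103 ± 6.41 CPM in the double knockdown, 58.5 ± 5.95 in the Trim28 knockdown and 328 ± 38.3 in the induced controls (SD, n = 3). Setdb1 stood at 63.1 ± 8.21, 122 ± 1.36 and 81.3 ± 4.27 CPM in the same groups, so that the double knockdown had less Setdb1 and more Trim28 transcript than the Trim28 knockdown. Fibroblast genes were abundant in all libraries, with Col1a1 at 4900 CPM or more in each. Of 12 leukocyte markers 11 had a row, and their summed level was 48.7 to 58.3 CPM in the double knockdown, 61.3 to 70.2 in the Trim28 knockdown, 63 to 72 in the induced controls and 9.71 to 12.2 in the uninduced cells. Laptm5, Cd68 and Itgam made up most of this in induced cells. Ptprc, Aif1, Tyrobp, Fcer1g and Emr1 reached at most 0.567 CPM in any library. The remaining markers were Csf1r, Lyz2 and Cd14. Csf1r stood at 2.19 to 2.51 CPM in induced controls and 1.29 to 1.75 in uninduced cells. Lyz2 stood at 0.729 to 1.25 and 2.5 to 2.65 CPM, and Cd14 at 1.6 to 1.86 and 1.1 to 2.76, in the same 2 groups. No leukocyte marker was at 0 in all libraries of the double knockdown, the induced controls or the uninduced cells, and 2 (Emr1 and Tyrobp) were in the Trim28 knockdown. The 6 markers of dendritic and T cells summed to at most 1.77 CPM. The 6 endothelial markers summed to 46.5 to 54.1 CPM in the double knockdown, 69.8 to 74.7 in the Trim28 knockdown, 48 to 61.8 in the induced controls and 12.2 to 13 in the uninduced cells, most of it Tek. The 6 fibroblast markers summed to 15400 to 17900, 11400 to 12800, 14000 to 21000 and 20500 to 24800 CPM in the same order of groups. The part of these cells in the results below was not tested.

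A gene rose or fell where edgeR's quasi-likelihood test gave a Benjamini-Hochberg adjusted p under 0.05 over the 14520 genes tested, and log2 fold changes carry standard errors from that model (SE, n = 3 per group). Of the members 43 were tested. Oas3, an oligoadenylate synthetase, did not pass the filter on low counts. It had 19 reads in the double knockdown, 32 in the Trim28 knockdown, 12 in the induced controls and 4 in the uninduced cells. In these bulk samples fewer cells with a transcript and less transcript per cell cannot be told apart.

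Induced controls were first set against uninduced cells, which differ in doxycycline and hence in factor expression. Most of the antigen presentation machinery, the IFIT genes, and the RNA sensors Ifih1, Ddx58 and Eif2ak2 were lower in induced controls than in uninduced cells. A smaller group was higher: Oas1a, Oas2, Oasl1, Rsad2, Zbp1, Bst2, Xaf1, Dtx3l and Cxcl10. In all 20 of 43 members fell (46.5%) and 9 rose (20.9%), against 32.7% of all genes that fell and 32.7% that rose. With testing limited to genes averaging 1 CPM or more, and with only the 6 libraries compared, 7 members rose. The share of members that changed in either direction, 67.4%, was near that of all genes, 65.3%. The members' median log2 change was -0.40, against -0.02 for all genes. Libraries of the 2 groups did not overlap in 21 members that were lower and 9 that were higher, against 32.2% and 32.4% of all genes.

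Of the 6 antigen presentation genes 4 fell and 2 did not pass. Tap1 and Tap2 are the chains of the transporter that moves peptides into the endoplasmic reticulum. Tap1 (ENSMUSG00000037321, chromosome 17, 34187553 to 34197225) had 16.5, 15 and 16 CPM in induced controls, against 35, 31.2 and 31.7 in uninduced cells. Each induced library was thus below every uninduced library. Gene positions are those of the deposited table, which names no genome build. The log2 change was -1.04 ± 0.09 (adjusted p = 3.9e-08). Tap2 had 20.1, 11.7 and 15.3 CPM in induced controls, against 29.1, 32.1 and 26.5 in uninduced cells, a change of -0.88 ± 0.14 (adjusted p = 2.78e-05). B2m, the light chain of MHC class I (ENSMUSG00000060802, chromosome 2, 122147686 to 122153083), had 313, 329 and 288 CPM in induced controls, against 547, 561 and 580 in uninduced cells. The groups were far apart, and the change was -0.86 ± 0.07 (adjusted p = 1.25e-08). Psmb8, a subunit of the immunoproteasome, had 2.22 ± 0.157 CPM in induced controls and 3.00 ± 0.427 in uninduced cells. Its call was the least stable of the 4. The adjusted p was 0.0472, and the call was lost without induced control replicate 1, 2 or 3 (0.112, 0.107 and 0.0572), without uninduced replicate 2 or 3 (0.0513 and 0.202), and with DESeq2 (0.145), limma-voom (0.0605), relative log expression factors (0.0623), no low-count filter (0.115) or only the 6 libraries compared (0.116). Psmb9, the neighbouring immunoproteasome subunit, had no read in induced control replicate 2 and 0.473 ± 0.424 CPM in that group, against 1.06 ± 0.114 in uninduced cells (adjusted p = 0.0527, and 0.016 without induced control replicate 1). Tapbp, which bridges the transporter to MHC class I, stood at 99.6 ± 11.9 and 93.2 ± 6.5 CPM (adjusted p = 0.291).

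All 3 IFIT genes, whose proteins bind viral RNA, fell. Ifit3 (ENSMUSG00000074896, chromosome 19, 34583531 to 34588731) had 0.936, 0.891 and 1.00 CPM in induced controls, against 3.56, 3.41 and 4.79 in uninduced cells. This was the largest fall among the members tested, at -2.04 ± 0.29 (adjusted p = 1.09e-05). Ifit1 had 2.05, 2.51 and 2.70 CPM in induced controls, against 4.62, 4.63 and 5.31 in uninduced cells, and changed by -1.0 ± 0.20 (adjusted p = 0.000351). Ifit2 averaged 11.3 ± 2.71 CPM in induced controls and 17.8 ± 2.23 in uninduced cells (-0.67 ± 0.16). Of the GTPases 3 of 6 fell: Irgm1, Irgm2 and Gbp2. Irgm1, which acts in the clearance of intracellular pathogens (ENSMUSG00000046879, chromosome 11, 48861968 to 48871683), had 20.8, 26.1 and 21.2 CPM in induced controls, against 50.1, 51.8 and 56.9 in uninduced cells. Its change of -1.23 ± 0.10 (adjusted p = 9.79e-09) was the largest among the GTPases. Igtp, Iigp1 and Gbp3 did not pass, with adjusted p = 0.247, 0.892 and 0.499.

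Of the RNA sensors 3 of 5 fell, 1 rose and 1 did not pass. Ifih1, which binds long double-stranded RNA, had 3.68, 3.65 and 3.10 CPM in induced controls, against 5.43, 6.04 and 6.99 in uninduced cells (-0.83 ± 0.17, adjusted p = 0.000433). Ddx58, the sensor of RNA ends also known as RIG-I, averaged 32.1 ± 2.16 and 48.0 ± 2.32 CPM (-0.59 ± 0.08), and Eif2ak2, the kinase PKR that stops translation, 48.5 ± 5.29 and 72.8 ± 8.95 CPM (-0.59 ± 0.09), in induced controls and uninduced cells. Zbp1, a sensor of left-handed nucleic acids, went the other way. It had 4.33, 5.59 and 5.96 CPM in induced controls, against 1.69, 1.86 and 0.777 in uninduced cells, a rise of 1.87 ± 0.25 (adjusted p = 6.25e-06). Stat2 and Irf9, partners in the factor that binds the response element, both fell, with Stat2 at 22.5 ± 1.21 and 32.1 ± 2.45 CPM (-0.51 ± 0.09, adjusted p = 8.13e-05) and Irf9 at 21.3 ± 0.344 and 28.1 ± 1.44 CPM (-0.40 ± 0.09, adjusted p = 0.00113). Irf7, the factor that amplifies the interferon response, did not pass, with 2.85 ± 0.399 CPM in induced controls and 2.94 ± 0.331 in uninduced cells (adjusted p = 0.849, 95% interval of the log2 change -0.47 to 0.38). Irf1, which interferon gamma induces, did not pass either (adjusted p = 0.589), except without induced control replicate 1 (0.0481).

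In the OAS family, which includes enzymes that make the activator of RNase L, 3 of 4 tested members rose. Rises were not confined to it: of the other antiviral effectors 3 of 8 rose and 2 fell. Oas1a had 1.87, 2.92 and 2.60 CPM in induced controls, against 0, 0.321 and 0.194 in uninduced cells, where the 3 libraries held 8 reads together. The rise was 3.78 ± 0.43 (adjusted p = 8.8e-07). Oas2 had 0.760, 1.38 and 1.80 CPM in induced controls, against 0.500, 0.386 and 0.194 in uninduced cells (1.86 ± 0.38, adjusted p = 0.000433). Its uninduced libraries held 17 reads together. Oasl1 was called at adjusted p = 0.0349 with no more than 0.551 CPM in any of these 6 libraries, a call lost without uninduced replicate 1 or 3 (0.115 and 0.0683) or induced control replicate 1 or 3 (0.0648 and 0.128). The low-count filter was run over all 4 groups. Oasl1 had 51 reads in the double knockdown, 61 in the Trim28 knockdown, 22 in induced controls and 6 in uninduced cells. It could be tested in only 12 of 14 alternatives. Among the other antiviral genes, Bst2, the membrane tether of budding virus (ENSMUSG00000046718, chromosome 8, 71534264 to 71537437), had 38.1, 47.0 and 49.0 CPM in induced controls, against 18.7, 19.9 and 19.7 in uninduced cells. Every induced library was above every uninduced one (1.20 ± 0.12, adjusted p = 1.37e-07). Rsad2, the antiviral enzyme viperin, had 1.05, 1.86 and 2.70 CPM in induced controls, against 0.312, 0.643 and 0.583 in uninduced cells (1.88 ± 0.39, adjusted p = 0.000433). Xaf1, linked to apoptosis, averaged 9.77 ± 1.37 and 5.32 ± 0.731 CPM (0.87 ± 0.16) and Dtx3l, a ubiquitin ligase, 16.1 ± 1.70 and 12.2 ± 0.0641 CPM (0.39 ± 0.13) in induced controls and uninduced cells.

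The restriction factor Ifitm3, which blocks virus entry, fell (152 ± 28.3 CPM in induced controls and 264 ± 37.8 in uninduced cells, -0.79 ± 0.12), and so did Ifi44, an interferon-induced gene of less certain function, with 0.985 ± 0.158 and 1.85 ± 0.155 CPM (-0.92 ± 0.25, adjusted p = 0.00397). Isg15, the ubiquitin-like modifier that interferon induces (ENSMUSG00000035692, chromosome 4, 156199424 to 156200818), had 2.92, 2.19 and 2.60 CPM in induced controls, against 4.12, 4.50 and 4.21 in uninduced cells, a fall (-0.72 ± 0.16, adjusted p = 0.00103). Usp18, the protease that removes Isg15, and Parp9, the partner of Dtx3l, fell by 0.69 and 0.49 on the log2 scale. The Usp18 call (adjusted p = 0.0309) was lost without uninduced replicate 2 or 3 (0.0711 and 0.074), without induced control replicate 1 (0.138) and with DESeq2 (0.0595). Cxcl10, a chemokine that draws T cells, was called as higher on 0.690 ± 0.166 CPM in induced controls and 0.276 ± 0.195 in uninduced cells (adjusted p = 0.0299). That call was lost without uninduced replicate 1 or 3 (0.0526 and 0.129) or induced control replicate 1 or 2 (0.0756 and 0.066). Cxcl10 too could be tested in only 12 of 14 alternatives. Ifi35, Trim25, Mx1, Mx2, Parp14, Oasl2 and Dhx58 did not pass.

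**Figure D2:**
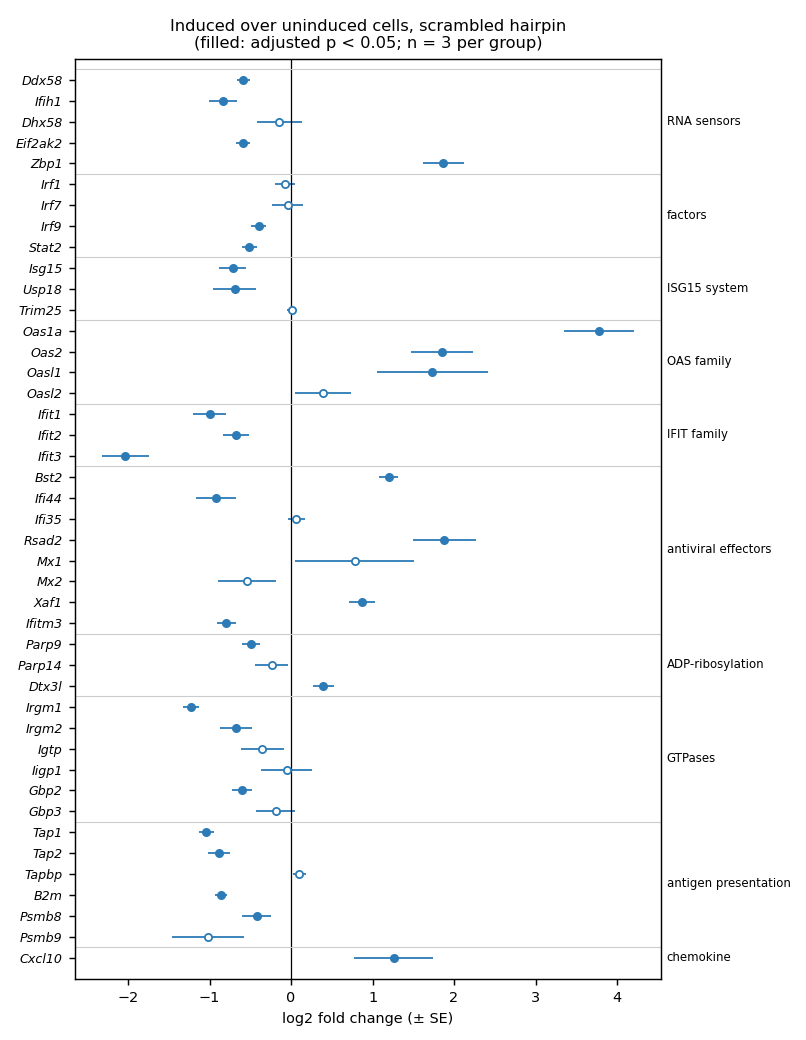
Log2 fold change (horizontal axis) of the 43 members tested in induced controls over uninduced cells, both with the scrambled hairpin, grouped by role; points are the edgeR estimate, bars its SE (n = 3 per group), and filled points passed the adjusted p threshold of 0.05. The filled points of the IFIT family and of antigen presentation lie left of 0, from -2.04 for Ifit3, while those of the OAS family lie right of it, up to 3.78 for Oas1a.

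The Trim28 knockdown was then set against the induced controls. Here 14 of 43 members rose (32.6%), against 13.1% of all genes, and 1 fell, against 11.8%. The 14 were Oas2, Oasl1, Oasl2, Ifi44, Isg15, Trim25, Parp9, Parp14, Dtx3l, Ifih1, Eif2ak2, Ifit1, Irf7 and Irgm1. Changes in either direction took 34.9% of members, against 24.9% of all genes. The members' median log2 change was 0.27, against 0.00 for all genes, and 19 members had all Trim28 knockdown libraries above the induced controls and 4 all below, against 20.4% and 18.4% of all genes. Without Trim28 knockdown replicate 3 the number that rose was 9. Mx1 (adjusted p = 0.0505) and Ifit3 (adjusted p = 0.0601) missed the threshold in this test. Mx1 passed without induced control replicate 3 (0.00113), with DESeq2 (0.037), with limma-voom (0.0156) and with no low-count filter (0.000442). Ifit3 passed without Trim28 knockdown replicate 1 (0.00713), with no low-count filter (0.0192) and with the replicate block (0.0403). The induced controls are the same libraries that the comparison with uninduced cells used.

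In the OAS family 3 of 4 tested genes rose. Oas2 (ENSMUSG00000032690, chromosome 5, 120730333 to 120749853) had 4.25, 4.43 and 5.02 CPM in the Trim28 knockdown, against 0.760, 1.38 and 1.80 in induced controls. The lowest knockdown library was well above the highest control. The rise was 1.78 ± 0.24 on the log2 scale (adjusted p = 4.16e-05), a 3.43-fold difference. Oasl2, an OAS relative with ubiquitin-like domains, had 2.22, 3.25 and 2.92 CPM in the Trim28 knockdown, against 0.760, 1.13 and 1.5 in induced controls (1.28 ± 0.28, adjusted p = 0.00289). Oasl1 averaged 1.22 ± 0.258 CPM in the Trim28 knockdown and 0.420 ± 0.159 in induced controls (1.45 ± 0.42, adjusted p = 0.0178), a call lost without Trim28 knockdown replicate 3 (0.083). Oas1a, the fourth, did not rise: it had 1.46, 1.60 and 1.58 CPM, against 1.87, 2.92 and 2.60 in induced controls (adjusted p = 0.0917, and 0.0397 without induced control replicate 1).

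Isg15 had 4.63, 4.91 and 5.60 CPM in the Trim28 knockdown, against 2.92, 2.19 and 2.60 in induced controls. All knockdown libraries lay above all controls, and above the uninduced libraries too. The rise was 0.96 ± 0.16 (adjusted p = 0.000288). Trim25, the ligase that activates Ddx58, rose by only 0.19 ± 0.06 (adjusted p = 0.0318), which was lost when any library of the comparison but induced control replicate 2 was left out (0.0662 to 0.124), and with upper quartile factors (0.0655), no low-count filter (0.118) or only the 6 libraries compared (0.0836). Usp18 did not pass (adjusted p = 0.0952). The 3 genes of the ADP-ribosylation group all rose. Parp14, a mono-ADP-ribosyltransferase, had 7.62, 10.2 and 10.1 CPM in the Trim28 knockdown, against 4.62, 5.27 and 5.66 in induced controls (0.85 ± 0.19, adjusted p = 0.00375). Parp9 and Dtx3l changed by 0.44 ± 0.11 and 0.42 ± 0.12. Of these the Parp9 call was lost without Trim28 knockdown replicate 2 (0.0596), and the Dtx3l call without Trim28 knockdown replicate 2 or 3 (0.107 and 0.0664) or induced control replicate 1 or 3 (0.0535 and 0.0879).

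Among the sensors, Ifih1 had 5.33, 7.27 and 5.95 CPM in the Trim28 knockdown, against 3.68, 3.65 and 3.10 in induced controls, without overlap. The rise of 0.84 ± 0.17 (adjusted p = 0.00157) brought its mean to 6.19 ± 0.990 CPM, beside 6.16 ± 0.785 in uninduced cells. Eif2ak2 rose by 0.29 ± 0.09 (adjusted p = 0.0266), a call lost without induced control replicate 1 or 3 (0.085 and 0.125) or any Trim28 knockdown replicate (0.0702 to 0.0898). Ddx58 averaged 32.8 ± 2.43 CPM in the Trim28 knockdown and 32.1 ± 2.16 in induced controls, with a log2 change between -0.15 and 0.22 (95% interval). Irf7 was the only one of the 4 transcription factors to pass. It had 4.32, 5.38 and 5.08 CPM in the Trim28 knockdown, against 2.4, 3.00 and 3.15 in induced controls, and the groups did not overlap (0.79 ± 0.17, adjusted p = 0.00277). Its row overlaps the far more abundant gene Phrf1 over 45 bases, and Phrf1 itself stood at 112 ± 2.92 CPM in the Trim28 knockdown and 112 ± 0.352 in induced controls (adjusted p = 0.988). Stat2, Irf9 and Irf1 had adjusted p = 0.672, 0.428 and 0.7. Ifit1 had 3.11, 4.49 and 5.14 CPM, against 2.05, 2.51 and 2.70 (0.81 ± 0.20, adjusted p = 0.00723), which without Trim28 knockdown replicate 3 became 0.0531. Ifi44 had 1.97, 2.84 and 2.63 CPM in the Trim28 knockdown, against 0.819, 1.13 and 1.00 in induced controls (1.35 ± 0.24, adjusted p = 0.00049).

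Irgm1 was the only GTPase of 6 to rise. It had 34.2, 38.5 and 38.9 CPM in the Trim28 knockdown, against 20.8, 26.1 and 21.2 in induced controls (0.72 ± 0.10, adjusted p = 4.04e-05), and stayed below the 50.1 to 56.9 CPM of the uninduced libraries. Bst2 fell, with 27.0, 30.2 and 31.8 CPM, against 38.1, 47.0 and 49.0 in induced controls (-0.59 ± 0.11, adjusted p = 0.000902). None of the 6 antigen presentation genes passed the edgeR test. At an unadjusted p under 0.05 there were 2, Tap1 (adjusted p = 0.0506) and Tapbp (adjusted p = 0.0703). Tap1 passed when testing was limited to genes averaging 1 CPM or more (0.0483), Tapbp without induced control replicate 1 (0.0085) and with replicate numbers as a block (0.0464), and Tap2 without induced control replicate 1 (0.0239). No call was made among these 6 by DESeq2 or by limma-voom. B2m averaged 309 ± 20.4 CPM in the Trim28 knockdown and 310 ± 20.3 in induced controls, with a 95% interval of the log2 change from -0.16 to 0.15. Cxcl10 stood at 0.880 ± 0.115 and 0.690 ± 0.166 CPM (adjusted p = 0.487).

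The double knockdown was set against the same induced controls. Here 10 of 43 members rose (23.3%), against 18.1% of all genes, and 2 fell (4.65%), against 18.5%. In either direction 27.9% of members changed, against 36.7% of all genes. The median log2 change of the members was 0.12, against 0.00 for all genes. Of members 13 had no overlap and were higher and 5 were lower, against 23.3% and 21.8% of all genes. Without double knockdown replicate 1, and likewise without induced control replicate 3, 6 members rose. The number that fell was 4 without induced control replicate 1, where Rsad2 and Xaf1 passed (0.00918 and 0.0175), and 1 without induced control replicate 2 or double knockdown replicate 1. Of the 10 rises 4 were antigen presentation genes. The other 6 were Oas2, Ifi44, Mx1, Irgm1, Ifih1 and Ifitm3.

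Tap1 had 22.8, 24.6 and 20.5 CPM in the double knockdown, against 16.5, 15 and 16 in induced controls. The groups did not overlap, and the rise of 0.51 ± 0.09 (adjusted p = 0.00039) left every double knockdown library below the uninduced ones. Tap2 had 24.1, 23.6 and 22.6 CPM in the double knockdown, against 20.1, 11.7 and 15.3 in induced controls (0.56 ± 0.14, adjusted p = 0.0043). Psmb8 (ENSMUSG00000024338, chromosome 17, 34197721 to 34201454) had 3.65, 3.63 and 4.27 CPM in the double knockdown, against 2.16, 2.11 and 2.4 in induced controls. Its double knockdown libraries were also above all uninduced libraries, which had 2.75 to 3.5 CPM. The rise was 0.78 ± 0.17 (adjusted p = 0.00194). B2m averaged 356 ± 13.2 CPM in the double knockdown and 310 ± 20.3 in induced controls (0.20 ± 0.07, adjusted p = 0.0289), a call lost without induced control replicate 1 or 3 (0.0525 and 0.155) or double knockdown replicate 1 or 3 (0.114 and 0.0797), and with size factors by relative log expression (0.051), upper quartile factors (0.0509) or only the 6 libraries compared (0.0795). Tapbp and Psmb9 had adjusted p = 0.235 and 0.316.

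Irgm1 had 33.8, 33.3 and 37.1 CPM in the double knockdown, against 20.8, 26.1 and 21.2 in induced controls (0.62 ± 0.10, adjusted p = 0.000109). Oas2 had 2.35, 2.44 and 2.51 CPM, against 0.760, 1.38 and 1.80 in induced controls (0.87 ± 0.26, adjusted p = 0.0148), a call lost without induced control replicate 1 (0.0705). The double knockdown libraries were close to each other, and the controls were spread more widely. Mx1, an antiviral GTPase that strain C57BL/6 carries in a defective form, had 2.18, 1.95 and 0.935 CPM in the double knockdown, against 0.117, 0.162 and 1.1 in induced controls. Induced control replicate 3 was above double knockdown replicate 3, so the groups overlapped, and the call (adjusted p = 0.0154) was lost without induced control replicate 1 (0.0556) or double knockdown replicate 1 or 2 (0.0626 and 0.0526). Ifi44 rose by 0.79 ± 0.25, Ifih1 by 0.54 ± 0.17 and Ifitm3 by 0.40 ± 0.12. The Ifi44 call was lost without induced control replicate 1 or 3 (0.0751 and 0.0548) or double knockdown replicate 1 or 2 (0.091 and 0.0525), and with DESeq2 (0.0571). The Ifih1 call was lost without induced control replicate 3 (0.104) or double knockdown replicate 2 (0.116), and the Ifitm3 call without induced control replicate 2 or 3 (0.0581 and 0.0634) or double knockdown replicate 1 (0.0655).

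Bst2 fell, with 26.5, 30.0 and 35.5 CPM in the double knockdown, against 38.1, 47.0 and 49.0 in induced controls (-0.54 ± 0.11, adjusted p = 0.00118). Iigp1, a GTPase that attacks the vacuoles of parasites, had 1.12, 1.90 and 0.526 CPM, against 2.28, 3.08 and 1.90 in induced controls (-0.98 ± 0.35, adjusted p = 0.0364). This call was lost without induced control replicate 2 (0.0995) or double knockdown replicate 1 or 3 (0.0939 and 0.145), and with only the 6 libraries compared (0.051). Same-numbered libraries of these 2 groups deviated together, and with the number as a block Xaf1 passed as well (adjusted p = 0.0464, against 0.0677 without it). It had 7.58 ± 1.5 CPM in the double knockdown and 9.77 ± 1.37 in induced controls. None of the 4 transcription factors, 3 IFIT genes, 3 genes of the Isg15 group and 3 genes of ADP-ribosylation passed the edgeR test, none had an unadjusted p under 0.05 in it, and none was called by DESeq2 or limma-voom. Isg15 had 2.94, 3.31 and 3.62 CPM in the double knockdown, against 2.92, 2.19 and 2.60 in induced controls (adjusted p = 0.122). Irf7 averaged 2.48 ± 0.393 CPM in the double knockdown and 2.85 ± 0.399 in induced controls (adjusted p = 0.422). The 95% interval of its log2 change ran from -0.63 to 0.23. Irf1, Irf9 and Stat2 had adjusted p = 0.953, 0.496 and 0.212, and Cxcl10 stood at 0.915 ± 0.299 and 0.690 ± 0.166 CPM (adjusted p = 0.368).

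**Figure D3:**
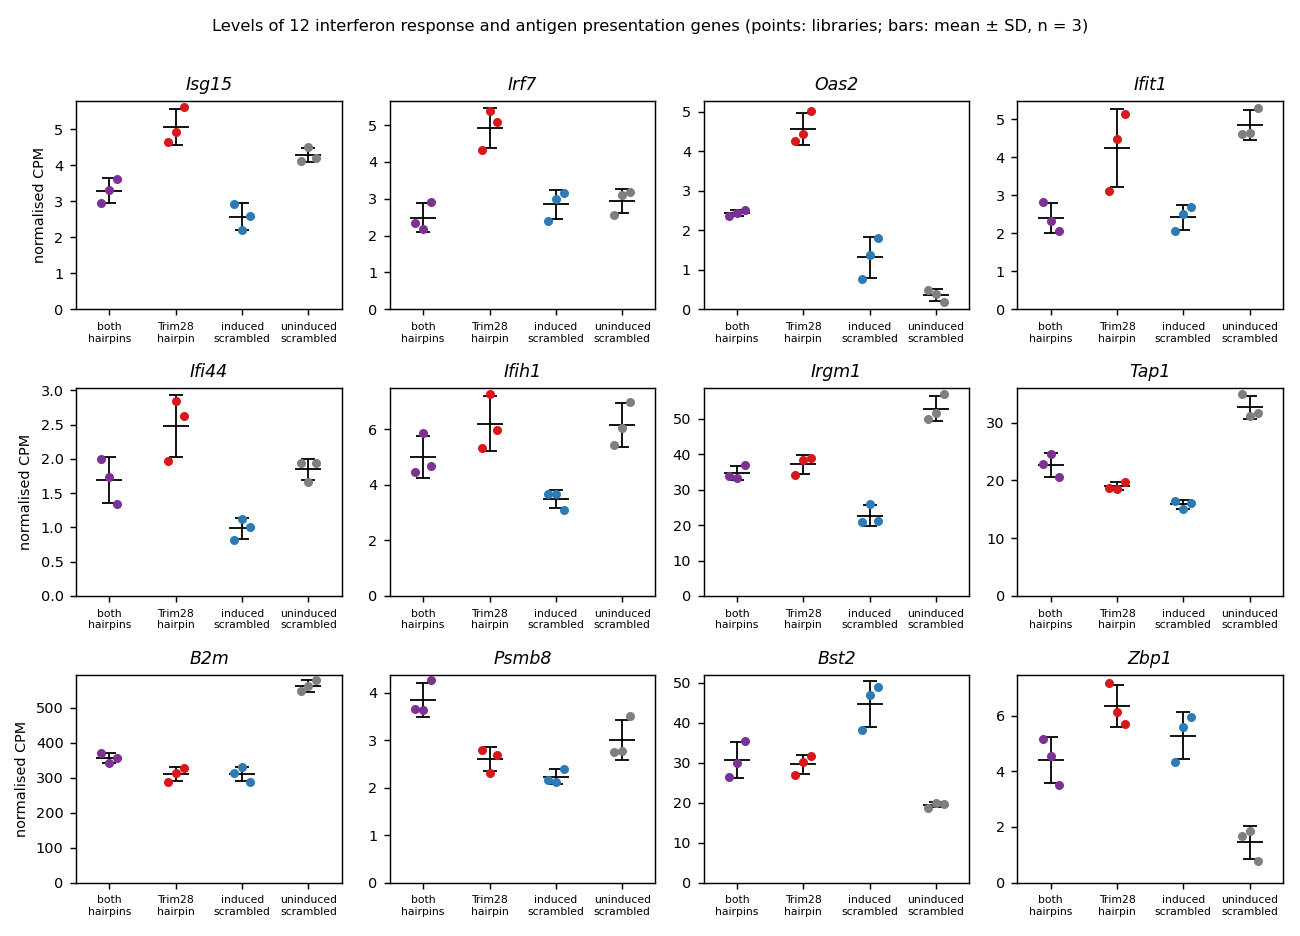
Normalised CPM (vertical axes, from 0) of 12 members in each of the 12 libraries; points are libraries and bars the mean ± SD of 3 in the double knockdown (both hairpins), Trim28 knockdown, induced controls and uninduced cells. Irf7 stood at 4.93 ± 0.548 CPM in the Trim28 knockdown and between 2.48 and 2.94 in the other groups, Psmb8 was highest in the double knockdown, and B2m and Tap1 were highest in the uninduced cells.

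The last comparison, of the double with the Trim28 knockdown, tests directly whether the members differed between them. Of 43 members 8 fell (18.6%), against 11.7% of all genes, and 2 rose (4.65%), against 10%. Irf7, Oas2, Isg15, Ifit1, Dtx3l, Trim25, Rsad2 and Xaf1 fell, and Psmb8 and B2m rose. In either direction 23.3% of members changed, near the 21.7% of all genes. The median log2 change was -0.20, against 0.00 for all genes, and 16 members were lower without overlap and 7 higher, against 23.1% and 23.7% of all genes. The number that fell was 5 without Trim28 knockdown replicate 3. The number that rose was 0 without Trim28 knockdown replicate 2, and 1 without Trim28 knockdown replicate 1 or 3 or double knockdown replicate 1 or 3.

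Irf7 (ENSMUSG00000025498, chromosome 7, 141262706 to 141266481) had 2.35, 2.17 and 2.92 CPM in the double knockdown, against 4.32, 5.38 and 5.08 in the Trim28 knockdown. The groups were well separated, and the fall of 0.99 ± 0.17 on the log2 scale had adjusted p = 0.000713 and passed in all 14 alternative settings run. Its overlapping neighbour Phrf1 stood at 102 ± 3.95 and 112 ± 2.92 CPM (adjusted p = 0.126). Oas2 had 2.35, 2.44 and 2.51 CPM in the double knockdown, against 4.25, 4.43 and 5.02 in the Trim28 knockdown (-0.91 ± 0.21, adjusted p = 0.00624). Isg15 had 2.94, 3.31 and 3.62 CPM in the double knockdown, against 4.63, 4.91 and 5.60 in the Trim28 knockdown (-0.62 ± 0.15, adjusted p = 0.00796). In each of these 3 genes every double knockdown library was below every Trim28 knockdown library. Ifit1 had 2.82, 2.33 and 2.05 CPM, against 3.11, 4.49 and 5.14 (-0.83 ± 0.20, adjusted p = 0.00743, and 0.0522 without Trim28 knockdown replicate 3). Dtx3l fell by 0.52 ± 0.12 and Trim25 by 0.31 ± 0.06.

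Rsad2 had 0.824, 1.46 and 1.17 CPM in the double knockdown, against 2.48, 2.01 and 2.51 in the Trim28 knockdown (-1.0 ± 0.31, adjusted p = 0.0291). Xaf1 had 6.30, 7.21 and 9.23 CPM, against 10.9, 10.6 and 10.4 (-0.49 ± 0.15, adjusted p = 0.0258). Neither overlapped between groups, yet both calls depended on single libraries. The Rsad2 call was lost without any Trim28 knockdown replicate (0.0502 to 0.0946) or double knockdown replicate 1 or 3 (0.129 and 0.0769), and the Xaf1 call without any Trim28 knockdown replicate (0.0639 to 0.074) or double knockdown replicate 1 or 2 (0.131 and 0.0765). Psmb8 rose, with 3.65, 3.63 and 4.27 CPM in the double knockdown, against 2.79, 2.31 and 2.69 in the Trim28 knockdown (0.57 ± 0.16, adjusted p = 0.0215), and was lost without Trim28 knockdown replicate 2 or 3 (0.109 and 0.0563), without double knockdown replicate 3 (0.0921) and with DESeq2 (0.0688). B2m rose by 0.20 ± 0.07 (adjusted p = 0.042), lost without Trim28 knockdown replicate 1 or 2 (0.19 and 0.108), without double knockdown replicate 1 or 3 (0.164 and 0.0984), and with size factors by relative log expression or no filter on low counts (0.0678 and 0.0574). Tap1 and Tap2 were higher without overlap but did not pass, with adjusted p = 0.0557 and 0.0647. Tap1 passed with upper quartile factors (0.043), only the 6 libraries compared (0.0361) and without double knockdown replicate 3 (0.0331). Tap2 passed with no low-count filter (0.011) and only the 6 libraries compared (0.0026). Parp14 was lower and missed the threshold (adjusted p = 0.0604), but passed in 7 of 14 alternatives, DESeq2 (0.0475) and limma-voom (0.0481) among them. Irgm1 and Bst2 did not pass, with adjusted p = 0.495 and 0.8.

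**Figure D4:**
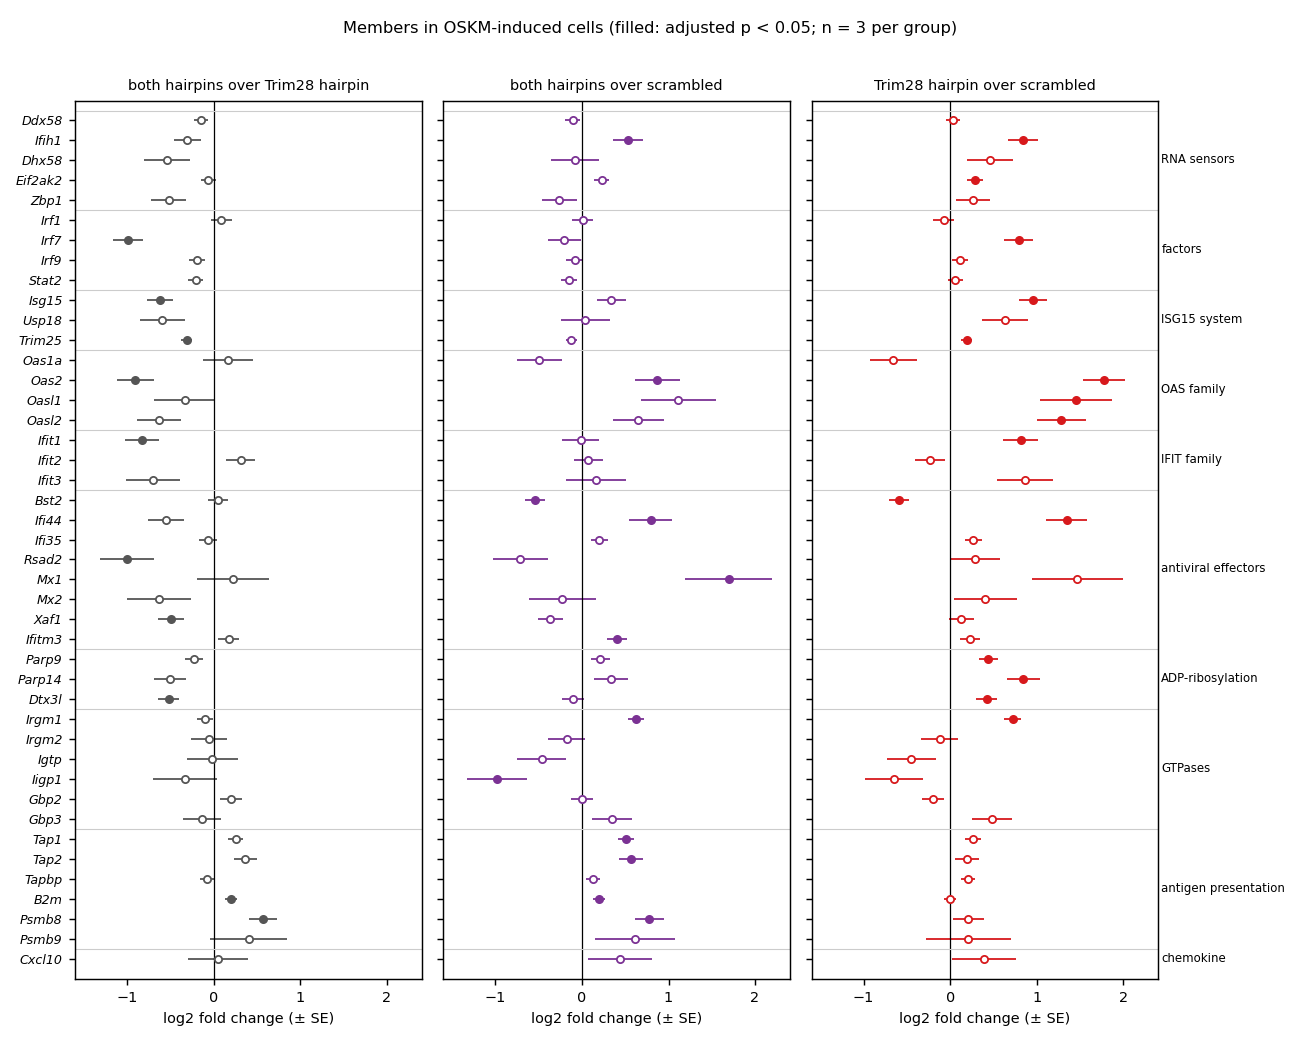
Log2 fold change (horizontal axes) of the 43 members tested, for the double over the Trim28 knockdown (left), the double knockdown over the induced controls (middle) and the Trim28 knockdown over the induced controls (right); points are edgeR estimates, bars their SE (n = 3 per group), and filled points passed the adjusted p threshold of 0.05. Irf7 and Isg15 are filled on the right of 0 in the Trim28 panel and on the left of 0 in the double over Trim28 panel, while Tap1 and Tap2 are filled in the middle panel only.

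Other genes of the pathway were read from 5 further lists of 113 genes, of which 89 were tested. Shares of these lists are set beside the shares of all genes given above for the same comparison. Of the 9 interferon genes listed 4 had a row, Ifnb1, Ifna2 and Ifnk with 1 read each over the 12 libraries and Ifnl2 with 2. Transcripts of these 4 genes were thus not detectable beyond 1 or 2 reads at this depth. Nothing was read for the listed interferon genes without a row or for interferon genes outside the list. Of 6 receptor genes tested, 4 fell in induced controls against uninduced cells (66.7%, against 32.7% of all genes) and 1 rose (16.7%, against 32.7%). Ifngr2, a chain of the interferon gamma receptor, was at -1.09 ± 0.07 (adjusted p = 7.72e-10), and Ifnlr1, the receptor of interferon lambda, was at 3.43 ± 0.23 (adjusted p = 1.73e-09). Ifngr2 rose in the double and in the Trim28 knockdown against induced controls, by 0.75 ± 0.07 and 0.34 ± 0.07, and Ifnlr1 fell, by 1.36 ± 0.18 and 0.65 ± 0.17 on the log2 scale. Of 11 signal transducers and inhibitors 6 fell with induction (54.5%) and 2 rose (18.2%), against 32.7% of all genes each way. The kinase gene Jak2 rose in the double and in the Trim28 knockdown against induced controls, by 0.53 ± 0.08 and 0.46 ± 0.08. Of 16 nucleic acid sensing genes 6 fell (37.5%) and 4 rose (25%) with induction, and the share called, 62.5%, was near the 65.3% of all genes. Aim2, a sensor of DNA that rose, stood at 13.3 ± 2.72 CPM in induced controls and 0.129 ± 0.170 in uninduced cells.

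Of 17 other antigen presentation genes tested, 10 fell with induction (58.8%, against 32.7% of all genes) and none rose. With both hairpins 8 rose (47.1%, against 18.1%) and with the Trim28 hairpin 7 rose (41.2%, against 13.1%), and none fell in either. In the double against the Trim28 knockdown 2 rose (11.8%, near the 10% of all genes) and none fell. H2-T23, a nonclassical MHC class I gene, changed by -1.39 ± 0.14 with induction, by 1.33 ± 0.14 in the double and by 0.94 ± 0.15 in the Trim28 knockdown (adjusted p = 2.62e-07, 2.57e-06 and 0.000153). H2-K1 and H2-D1, the classical class I genes, rose by 0.73 ± 0.07 and 0.52 ± 0.07 in the double and by 0.89 ± 0.07 and 0.38 ± 0.07 in the Trim28 knockdown. Their close similarity makes the split of reads between them uncertain. Nlrc5, the transactivator of class I genes, was at -1.09 ± 0.13 with induction, 0.48 ± 0.14 with both hairpins and 0.51 ± 0.14 with the Trim28 hairpin (adjusted p = 2.05e-06, 0.0123 and 0.0126). Of 39 other interferon-stimulated genes, 13 rose (33.3%) and 8 fell (20.5%) with induction, 6 rose (15.4%) and 4 fell (10.3%) with both hairpins, and 5 rose (12.8%) and 1 fell (2.56%) with the Trim28 hairpin. In each of these the share that rose was near that of all genes, 32.7%, 18.1% and 13.1%. The share that fell was below that of all genes in each, 32.7%, 18.5% and 11.8%. In the double against the Trim28 knockdown 5 rose (12.8%) and 6 fell (15.4%), and over all 5 lists 10 rose and 10 fell (11.2% each), near the 10% and 11.7% of all genes. Gbp4, a guanylate-binding GTPase, stood at 2.95 ± 0.168 CPM in the double knockdown, 0.604 ± 0.117 in the Trim28 knockdown and 0.318 ± 0.0844 in induced controls. Its log2 change with both hairpins was 3.16 ± 0.30, and it rose over the Trim28 knockdown too (2.28 ± 0.26, adjusted p = 2.32e-05). Rnf213, a giant ubiquitin ligase, and Gbp7 rose in the Trim28 knockdown, by 0.67 ± 0.09 and 0.80 ± 0.14, and fell in the double against the Trim28 knockdown, by 0.62 ± 0.09 and 0.70 ± 0.13 on the log2 scale.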

How the data were processed

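Expression was measured as whole-number read counts per gene, which the authors deposited for 12 libraries without normalisation. Per the submitters' processing notes, TopHat2 2.0.12, Bowtie 1.1 and HTSeq were used. A version of HTSeq, a genome build and a strand setting are not given in the sources used here. All 44 member identifiers were found at an overlapping place in GENCODE M21 (GRCm38), 38 with the same start, and coordinates of genes are printed as in the deposited table. Groups and replicate numbers came from sample titles and column names.

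The test was the quasi-likelihood test of edgeR 4.0.16, run in R 4.3.3 (TMM factors, 1 term per group over 12 libraries, filter with minimum count 10 and minimum total 15, 14520 genes kept). The procedure was also run on simulated data with 200 changed genes and a spread taken from the fitted trend. That run does not cover a comparison where most genes change, or spread particular to a gene or library. No result here rests on it. CPM values use the TMM-scaled totals of these genes. Alternatives used limma 3.58.1 and DESeq2 1.42.0. No 2 replicates were alike within sampling noise: chi-square divided by its degrees of freedom was 1.96 to 18.8. Same-numbered libraries of the double knockdown and induced controls deviated together (correlations 0.31, 0.14 and 0.19), a pairing seen in the data and not stated in the labels; in the other comparisons at least 1 pair was under 0.1.

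Members and lists were chosen with earlier results of these data known. Full statistics go to the members with up to 8 largest rises and 8 largest falls per comparison among called members whose higher group averaged 1 CPM or more and whose libraries did not overlap, to Irf1, Irf7, Irf9, Stat2, Tap1, B2m, Irgm1, Bst2, Isg15 and Cxcl10, and to list genes with 1 of the 3 smallest p-values of their list; 1 gene named by this rule is not reported here. Values of other members, and Nlrc5 in the knockdowns, were chosen after they were seen, as were the 6 printed promoters. Counting floors cover counting error only, since without molecular identifiers reads need not be independent molecules.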

Additional observations from a re-analysis of the deposited data

How the results depend on the processing

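Of the 52 calls of members over the 4 comparisons, 30 held in every alternative run (other scalings, no or a stricter low-count filter, DESeq2, limma-voom, only the 6 libraries compared, a replicate block, and each library left out), 22 were lost in 1 or more, and no called member changed sign. The 22 are given beside their results, and the cause was not tested. Of 120 member results without a call 26 gained one in 1 or more alternatives. Among members followed whatever their call, signs changed with a library left out for Irf1 (log2 -0.251 to 0.00762 with induction, -0.166 to 0.0927 with the Trim28 hairpin, -0.0803 to 0.178 with both), Irf7 (-0.138 to 0.0809, induction), B2m (-0.0572 to 0.0406) and Irf9 (-0.000336 to 0.170) with the Trim28 hairpin, and Bst2 (-0.0699 to 0.143) and Cxcl10 (-0.217 to 0.240) in the double against the Trim28 knockdown; Irf1 with both hairpins was at -0.0108, -0.00621 and -0.0105 with relative log expression factors, upper quartile factors and DESeq2.

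Leaving out each library gave these ranges. With the Trim28 hairpin 9 to 14 members rose and 1 to 2 fell, and 1 to 6 genes of the pathway lists fell. With both hairpins 6 to 10 members rose and 1 to 4 fell, and 13 to 25 pathway genes rose and 3 to 8 fell. In the double against the Trim28 knockdown 0 to 2 members rose and 5 to 9 fell, 4 to 8 pathway genes rose and 5 to 10 fell, and of all genes 772 to 1262 rose and 1028 to 1581 fell. Members that rose there numbered 1 with relative log expression factors, 1 with DESeq2 and 4 with only the 6 libraries, which also gave 16 pathway genes and 2376 genes in all that rose. Members that fell with both hairpins numbered 4 without the low-count filter and 1 with only the 6 libraries. Pathway genes that fell with the Trim28 hairpin numbered 5 with upper quartile factors, 7 without the filter and 6 with the replicate block. The block, where same-numbered libraries deviated together (both hairpins against induced controls), left 10 members that rose and 3 that fell, against 10 and 2. In the Trim28 comparison same-numbered correlations were positive but lower (0.158, 0.061 and 0.096), so whether the numbers pair these libraries is not settled. There 18 members rose with the block, against 14. Those gained were Tapbp (0.0464), Ifit3 (0.0403), Ifi35 (0.0393) and Usp18 (0.0439). No scaling moved the median of all genes by more than 0.1 on the log2 scale. Such scalings hold the bulk of genes near no change, so this median cannot show whether the scaling is right. With 3 reads at 0.150 to 0.243 CPM, depth limits members near that level, among them Oas3, which was not tested, Oasl1, Mx1, Cxcl10 and Psmb9.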
